A study of Mus musculus with 12 samples.

Results

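Expression of the vascular endothelial growth factor (VEGF) family was followed through 12 RNA-seq libraries of mouse fibroblasts. The family was taken as 9 genes, chosen by gene name from the 54447 features of the count table: the ligands Vegfa, Vegfb, Vegfc and Pgf, the receptors Flt1, Kdr and Flt4, and the coreceptors Nrp1 and Nrp2. The labels describe mouse embryonic fibroblasts, and the methods of the study name the NIH3T3 line. The cells carried a lentiviral, doxycycline (dox) inducible Tet-One vector for either N-VEGF, an N-terminal stretch of the longer Vegfa product L-VEGF, or NLS-N-VEGF, the same protein behind a nuclear localization signal taken from a Cas9 construct. Both constructs carry a histidine tag, and infected cells were kept as puromycin-selected pools rather than single clones. Each population was sequenced without dox and after 16 h with dox, which gives 4 groups of 3 libraries: NLS-N-VEGF without dox, NLS-N-VEGF with dox, N-VEGF without dox and N-VEGF with dox. No group without a construct was analysed here, so dox itself and the induced protein cannot be told apart. Replicates carry the labels 1_120519, 2_120519 and 2_290419 in every group. The suffix reads as a date, and the labels do not say what it dates.

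VEGF ligands are secreted dimers that signal through receptor tyrosine kinases. Vegfa binds both Flt1 (VEGFR1) and Kdr (VEGFR2), and Kdr carries most of its signal in blood endothelium. Vegfb and Pgf bind Flt1 only, while Vegfc acts on Flt4 (VEGFR3), the main receptor of lymphatic endothelium. Nrp1 and Nrp2 are neuropilins, coreceptors with a short cytoplasmic tail that bind both VEGFs and class 3 semaphorins. Fibroblasts are known as a source of VEGF ligands, and the signalling receptors are typical of endothelial cells.

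The constructs hold part of the family's leading ligand, so their cloning primers are shown first. In each line the capitals mark the bases that match Vegfa transcripts:
N-VEGF forward primer: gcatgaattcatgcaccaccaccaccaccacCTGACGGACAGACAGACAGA
NLS-N-VEGF forward primer: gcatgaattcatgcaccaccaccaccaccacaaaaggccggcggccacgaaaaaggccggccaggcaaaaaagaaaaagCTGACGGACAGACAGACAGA
Reverse primer: gcaccggtttaGGTTTCGGAGGCCCGa

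Both forward primers end in the same 20 bases, which lie in exon 1 of Vegfa at chr17:46031871-46031890 on the minus strand (GRCm38). The capitals of the reverse primer, 15 bases, match chr17:46031357-46031371. The primers bound a stretch of 534 bases, or 178 codons, within 1 exon. It is annotated as coding in the transcript Vegfa-202, which starts at a CUG codon, and it ends directly before the ATG of Vegfa-201, whose annotated coding start is at position 46031356. The stretch makes up 12.5% of the exon sequence of Vegfa, so a read from the construct can carry the same bases as a read from the endogenous gene. The count table has a separate feature for the construct insert. That feature held 5 to 12 counts in the 6 libraries without dox, 48, 35 and 173 counts in NLS-N-VEGF cells with dox, and 121, 149 and 268 counts in N-VEGF cells with dox. All 6 libraries with dox lay above all 6 without it. With dox the NLS-N-VEGF cells had fewer insert counts than the N-VEGF cells under each replicate label. The feature ends at position 592, and its sequence was not known. The forward primer has 31 bases before the Vegfa match for N-VEGF and 79 for NLS-N-VEGF. Reads of each construct may thus match the feature to a different degree. Whether the lower insert counts in NLS-N-VEGF cells stand for lower induction was not tested.

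The promoters of 4 members are shown to set genes that were detected (Vegfa, Vegfb, Flt1) beside a receptor that was not (Kdr). They are the 250 bases before the transcription start in RefSeq (GRCm38.p6), written in the direction of transcription, and capitals mark GGGCGG on either strand, the core of the Sp1 motif. The coordinates are chr17:46032378-46032627 for Vegfa, chr19:6987652-6987901 for Vegfb, chr5:147726012-147726261 for Flt1 and chr5:75978456-75978705 for Kdr, all on the minus strand:
Vegfa promoter: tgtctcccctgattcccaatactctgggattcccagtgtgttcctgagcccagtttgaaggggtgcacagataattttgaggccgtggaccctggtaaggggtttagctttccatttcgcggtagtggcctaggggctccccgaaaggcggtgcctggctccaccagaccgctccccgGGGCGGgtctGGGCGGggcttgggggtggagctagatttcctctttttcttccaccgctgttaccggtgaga
Vegfb promoter: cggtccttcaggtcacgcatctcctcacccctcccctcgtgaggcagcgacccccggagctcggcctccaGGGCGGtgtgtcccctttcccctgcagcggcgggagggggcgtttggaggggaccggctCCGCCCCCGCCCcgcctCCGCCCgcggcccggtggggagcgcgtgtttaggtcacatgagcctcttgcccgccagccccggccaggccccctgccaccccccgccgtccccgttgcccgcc
Flt1 promoter: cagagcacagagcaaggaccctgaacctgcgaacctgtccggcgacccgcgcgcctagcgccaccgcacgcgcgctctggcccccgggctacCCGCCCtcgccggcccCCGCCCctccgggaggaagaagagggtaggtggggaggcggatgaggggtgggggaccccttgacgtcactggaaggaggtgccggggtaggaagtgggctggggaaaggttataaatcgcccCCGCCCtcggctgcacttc
Kdr promoter: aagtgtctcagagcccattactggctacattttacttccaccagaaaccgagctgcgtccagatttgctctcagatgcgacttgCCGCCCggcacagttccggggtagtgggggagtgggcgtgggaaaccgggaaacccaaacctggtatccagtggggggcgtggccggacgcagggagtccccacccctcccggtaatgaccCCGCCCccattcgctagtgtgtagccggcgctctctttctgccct

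The motif occurred 2 times in the Vegfa promoter, 4 times in that of Vegfb, 3 times in that of Flt1 and 2 times in that of Kdr. All 9 members had it in their first listed promoter, against 32.7% of all 32851 mouse promoters of the same length. The motif is made of G and C only, and these first promoters were 59.2 to 76.4% G and C. The share was not adjusted for that. The 32851 promoters belong to 27025 genes and so include further promoters of the same gene, and the second promoter of Pgf held 0 copies. Among the members not shown, the first promoters held from 1 copy (Nrp1) to 5 copies (Nrp2), with 3 in Flt4, which was also below detection. The relation of copies to level was not tested. The core of the hypoxia response element, ACGTG on either strand, was found in 16.6% of all promoters. It was not among the 250 bases of the first promoter of any member, and the second promoter of Vegfa held 1 copy. Bases further upstream were not searched, so the absence holds for this window only.

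Total counts ran from 13549331 to 18982127 per library. A count of 3, the highest true mean that a count of 0 allows at the 95% level, stands for 0.158 to 0.221 counts per 1000000 (CPM). This limit, like each interval on a count given here, covers counting error only. The labels do not say whether replicates came from separate cultures, so the p-values measure the spread between libraries, which may be technical. The fibroblast label was met by the markers: all 12 fibroblast genes listed passed the filter on low counts, with a summed level of 11900 to 15200 CPM. One of them, Lum, had 0 counts in the lowest library and 26 in the highest. Of 12 endothelial genes, 5 never exceeded 3 counts (Emcn, Cldn5, Erg, Sox18, Robo4) and 5 passed the filter (Pecam1, Cdh5, Tie1, Esam, Egfl7). Cdh5 had 30 to 55 counts and Egfl7 16 to 64, and all 12 together came to 6.07 to 8.8 CPM. Of the 4 lymphatic genes, Prox1 and Mmrn1 were at 0 throughout. The macrophage list came to 8.32 to 13.5 CPM, with Adgre1 and Itgam below detection and Csf1r at 65 to 175 counts. The libraries stood apart by suffix, with 45.6% of the 13608 genes tested called between the suffixes.

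Both neuropilins and the ligands Vegfa and Vegfb had 582 to 3007 counts in every library, Flt1 and Pgf had 14 to 58, and Vegfc, Flt4 and Kdr had at most 6. Kdr, the main signalling receptor for Vegfa, had 1 count in NLS-N-VEGF without dox 2_290419, 1 count in NLS-N-VEGF with dox 2_290419 and 0 in the other 10 libraries. Its 2 counts among 195478240 give 0.0102 CPM (exact Poisson 95% interval 0.00124 to 0.037). Flt4 was at 0 in 7 libraries and had at most 2 counts in any, for a pooled level of 0.0358 CPM (0.0144 to 0.0738). Kdr and Flt4 were the members below detection, defined as at most 3 counts in every library. Flt1 was the only one of the 3 receptors detected.

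Vegfc, the ligand for Flt4, was at the edge of detection. Its counts were 1, 3 and 0 before and 3, 4 and 5 after dox in NLS-N-VEGF cells, and 3, 0 and 6 before and 1, 0 and 1 after dox in N-VEGF cells. The groups overlapped, apart from the highest library with dox in N-VEGF cells (1 count) lying below the lowest with dox in NLS-N-VEGF cells (3 counts). Among the genes tested, 2.99% were higher without overlap in NLS-N-VEGF cells in that comparison. All these Vegfc counts lie near the floor of 3 counts, and Vegfc did not pass the filter on low counts. Over all libraries it had 27 counts, or 0.138 CPM (0.091 to 0.201). Kdr, Flt4 and Vegfc therefore enter no test, and 6 of the 9 members were tested.

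**Figure D1:**
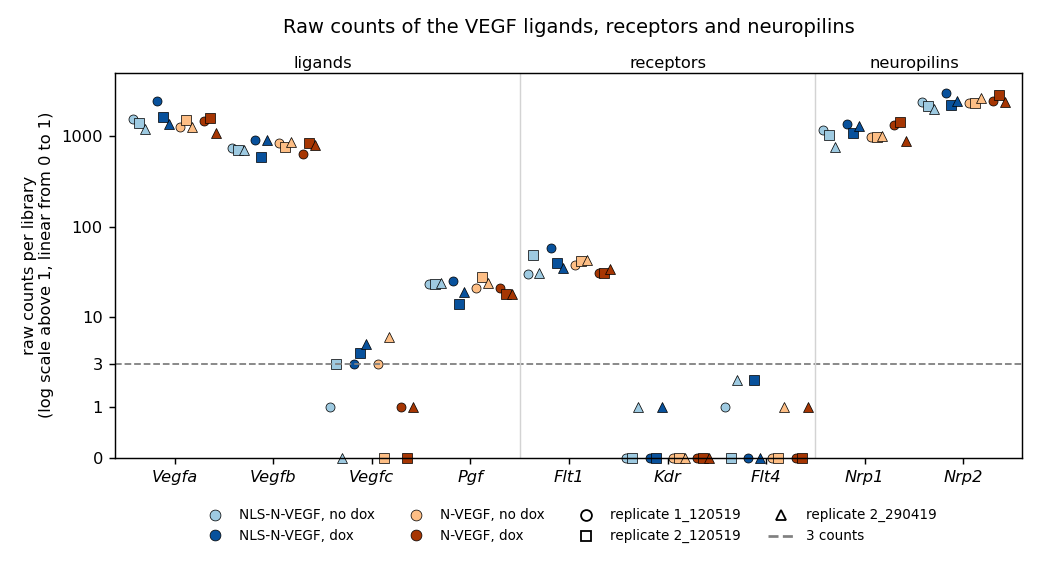
Raw counts of the 9 members in each of the 12 libraries, 1 point per library, coloured by group; the count axis is linear near 0 and logarithmic above, and the dashed line marks 3 counts. Kdr and Flt4 stay at or under the line in all 12 libraries, Vegfc crosses it in 3, and the other 6 members lie well above it.

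Divided by exon length, the ligands Vegfb and Vegfa were the most abundant members. Mean levels over 12 libraries were 29.6 CPM per kilobase for Vegfb, 21.2 for Vegfa, 12.6 for Nrp2, 6.93 for Nrp1, 0.457 for Pgf, 0.176 for Flt1, 0.0567 for Vegfc, 0.00479 for Flt4 and 0.00121 for Kdr. The ranges of Vegfb (24.7 to 33.2) and Vegfa (17.1 to 30.4) overlapped over libraries, so these neighbours are not separated. Vegfa and Nrp2, Nrp2 and Nrp1, Nrp1 and Pgf, and Pgf and Flt1 did not overlap. Flt1, Vegfc, Flt4 and Kdr each overlapped the next. Among the genes tested, the per-kilobase level of Vegfb lay at percentile 87.9, that of Vegfa at 82.7, that of Nrp2 at 71.9 and that of Nrp1 at 56.9. Pgf, a ligand best known from placenta, stood at 13.4, and Flt1 at 4.6.

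Without the division by length the order changes, because the exons of Vegfb add up to 1605 bases and those of Nrp2 to 11842. On the CPM scale Nrp2 came first at 149, ahead of Vegfa at 90.8, Nrp1 at 67.8 and Vegfb at 47.4. Only 4 of the 9 members held the same place on both scales. Exon length counts every annotated exon of a gene, so a transcript that uses part of it, such as a soluble form of Flt1, is understated. Within single libraries the per-kilobase level of Nrp2 was 1.55 to 2.23 times that of Nrp1. Vegfa stood at 0.515 to 1.06 times Vegfb.

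**Figure D2:**
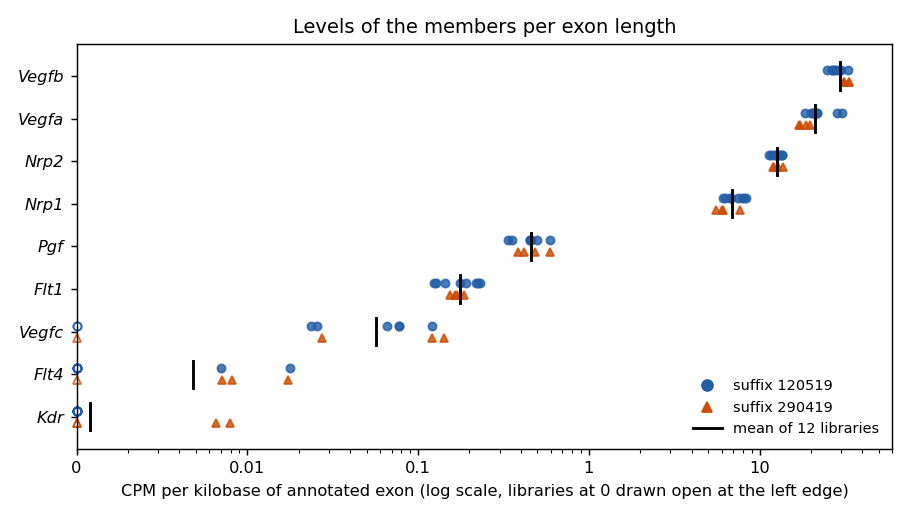
Level of each member in CPM per kilobase of annotated exon on a logarithmic axis, 1 point per library, with counts of 0 drawn at the left edge. The points of Vegfb and Vegfa overlap at the top, Nrp2 and Nrp1 follow as separate bands, and Flt1 is the highest of the receptors.

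Vegfa, the ligand that drives blood vessel growth, had its 2 highest values in NLS-N-VEGF cells with dox. Its level in these cells was 88.7, 87.5 and 84.9 CPM without dox and 130, 121 and 79.6 with dox, in the order 1_120519, 2_120519, 2_290419. The first 2 libraries with dox lay above all others of the study, while the third lay below all 3 without dox. N-VEGF cells had 78.9, 92.5 and 74.1 CPM without dox and 92.7, 85.6 and 73.3 with dox, which overlap fully. Group means were 87.0 ± 1.94 and 110 ± 27.0 CPM (SD, n = 3) in NLS-N-VEGF cells, and 81.8 ± 9.52 and 83.9 ± 9.85 in N-VEGF cells.

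In NLS-N-VEGF cells, Vegfa differed by a log2 fold change of 0.34 between dox and no dox (SE 0.161, 95% interval -0.01 to 0.69), which the edgeR quasi-likelihood test did not call (adjusted p = 0.9998). The value rested on single libraries. It was 0.20 without NLS-N-VEGF with dox 1_120519 and 0.53 without NLS-N-VEGF with dox 2_290419. With the replicate label as a block, Vegfa differed by 0.32 (SE 0.104, interval 0.10 to 0.54). It was again not called (edgeR adjusted p = 0.363), while 0.125% of all genes were. In the 8 libraries with suffix _120519 alone, which leaves 2 per group, Vegfa rose by 0.51 (SE 0.088, interval 0.31 to 0.70, edgeR adjusted p = 0.0294). There 0.814% of 13387 genes were called, and over the other alternatives the adjusted p for Vegfa lay between 0.354 and 1. The dox effect on Vegfa was lower by 0.61 on the log2 scale in suffix _290419 than in suffix _120519 (SE 0.155, interval -0.95 to -0.26, edgeR adjusted p = 0.532), and 0% of genes passed for that difference. This comparison rests on 1 library per group with suffix _290419, and it was chosen after the Vegfa values were seen.

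In N-VEGF cells, Vegfa differed by 0.04 on the log2 scale with dox (interval -0.32 to 0.39). The dox effects of the 2 populations differed by 0.31 (interval -0.19 to 0.80), which was not called. Between the populations with dox, Vegfa was 0.395 higher in NLS-N-VEGF cells (SE 0.161, interval 0.05 to 0.75, edgeR adjusted p = 0.9999). That did not pass, and in suffix _120519 alone it was 0.50 with an adjusted p of 0.114 (0.801 to 1 over the other alternatives). With the replicate label as a block it was 0.38 (interval 0.16 to 0.60, edgeR adjusted p = 0.862), also not called. The share of construct reads within the Vegfa counts was not tested.

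Vegfb, the ligand of Flt1 linked to heart muscle and fat tissue, was flat across the groups. NLS-N-VEGF cells had 42.7, 44.1 and 50.2 CPM without dox and 48.1, 42.8 and 53.3 with dox, and N-VEGF cells had 53.2, 46.9 and 49.9 without dox and 39.6, 45.1 and 53.3 with dox. The 4 ranges overlapped. Log2 fold changes with dox were 0.08 in NLS-N-VEGF cells (interval -0.19 to 0.34) and -0.12 in N-VEGF cells (-0.39 to 0.14).

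Pgf was near 1 CPM. In NLS-N-VEGF cells 23, 23 and 24 counts were found before and 25, 14 and 19 after dox, and in N-VEGF cells 21, 28 and 24 before and 21, 18 and 18 after dox. Scaled to library size, Pgf was lower with dox in 5 of the 6 pairs that share a population and a replicate label. The share of all genes with such a count was not computed. Log2 fold changes were -0.35 in both populations, with intervals of -0.91 to 0.21 in each, and neither passed the test.

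Flt1, the detected receptor, had 30, 48 and 31 counts before and 58, 40 and 35 after dox in NLS-N-VEGF cells, and 38, 42 and 43 before and 31, 31 and 34 after dox in N-VEGF cells. The 2 NLS-N-VEGF groups overlapped, and the N-VEGF libraries with dox lay below those without. The log2 fold change with dox was 0.22 (interval -0.33 to 0.78) in NLS-N-VEGF cells and -0.35 (-0.91 to 0.21) in N-VEGF cells. The difference of these effects, 0.57 (-0.22 to 1.36), was not called. Pooled over libraries Flt1 stood at 2.36 CPM (exact Poisson 95% interval 2.15 to 2.58).

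**Figure D3:**
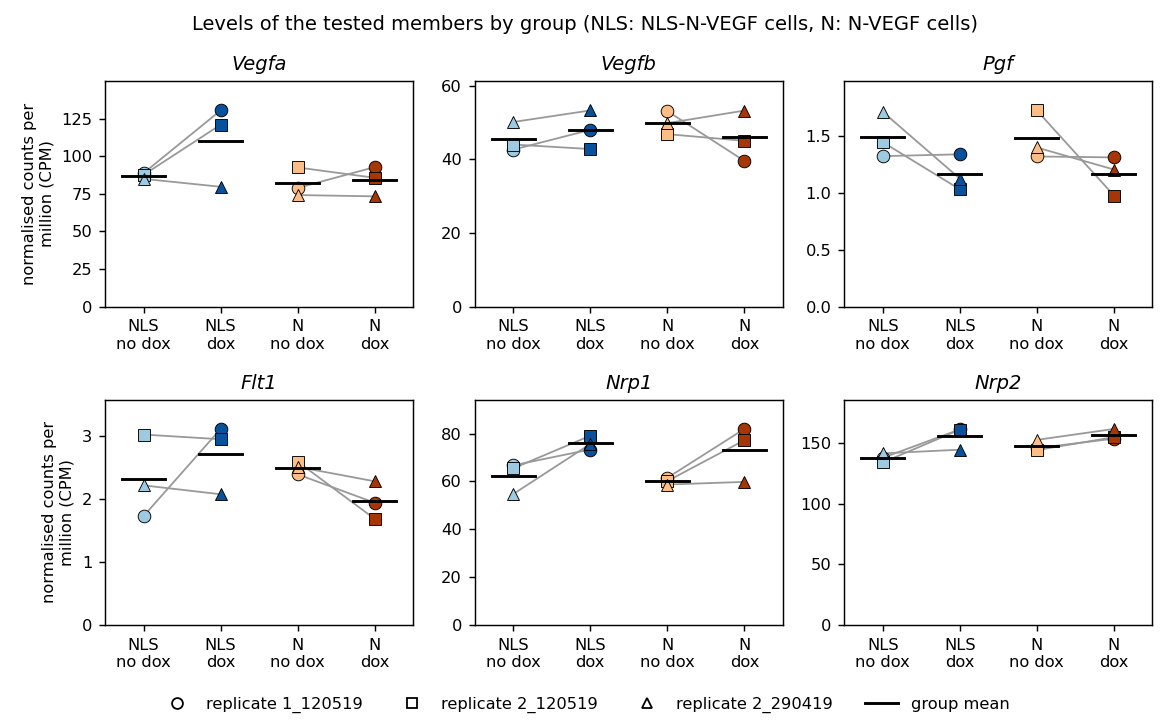
CPM of the 6 tested members in the 4 groups, 1 panel per gene and 1 point per library, with lines joining the libraries without and with dox that share a replicate label and horizontal bars at group means. The Nrp1 and Nrp2 lines slope upward in all 6 pairs, whereas the Vegfa lines in NLS-N-VEGF cells slope upward for both _120519 labels and slightly downward for 2_290419.

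The neuropilins gave the most even pattern with dox. Nrp1, the coreceptor for Vegfa and Sema3a, stood at 66.7, 65.4 and 54.7 CPM before and 73.3, 79.1 and 75.6 CPM after dox in NLS-N-VEGF cells. N-VEGF cells had 61.5, 60.1 and 58.7 CPM without dox and 81.9, 77.2 and 59.8 with dox. The NLS-N-VEGF groups did not overlap, and the N-VEGF groups overlapped through 2_290419 alone. Ratios of dox to no dox within replicate labels ran from 1.02 to 1.38 and exceeded 1 in 6 of 6 pairs. The share of all genes with 6 of 6 pairs in 1 direction was not computed.

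Nrp1 differed with dox by 0.29 on the log2 scale in NLS-N-VEGF cells (SE 0.116, interval 0.03 to 0.54) and by 0.28 in N-VEGF cells (SE 0.116, interval 0.03 to 0.53). Unadjusted edgeR p-values were 0.0294 and 0.0322, and neither passed over all genes (adjusted p = 0.9998 and 0.9999). The effects differed between populations by 0.01 (-0.35 to 0.36). With the replicate label as a block, Nrp1 differed by 0.29 in NLS-N-VEGF cells (interval 0.11 to 0.47) and 0.27 in N-VEGF cells (0.09 to 0.45). Neither was called (edgeR adjusted p = 0.308 and 0.5835).

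Averaged over both populations, a comparison chosen after these values were seen, Nrp1 was 0.28 higher with dox (SE 0.082, interval 0.11 to 0.46). In the model of groups alone it was not called (edgeR unadjusted p = 0.00469, adjusted p = 1), and 0.0588% of genes were. With the replicate label as a block it was called (log2 fold change 0.28, interval 0.15 to 0.41, adjusted p = 0.0453), as were 0.566% of all genes. In suffix _120519 alone the value was 0.29 with an adjusted p of 0.033, where 1.01% of genes were called. Over all alternatives tried the value lay between 0.23 and 0.35 and the adjusted p between 0.033 and 1. With the block kept and 1 library left out, a check added after the call was seen, Nrp1 was between 0.24 and 0.33 (adjusted p from 0.0216 to 0.199) and lost the call in 8 of 12 fits. The call held only without NLS-N-VEGF with dox 1_120519, N-VEGF without dox 1_120519, N-VEGF without dox 2_290419 or N-VEGF with dox 2_290419. In the same blocked comparison the fibroblast markers Pdgfra and Dcn fell by 0.49 and 0.54, 2 of 12 on that list, and the mural marker Acta2 rose by 0.54, 1 of 2 tested. The mural list summed to 233 to 374 CPM before and 312 to 487 CPM after dox in NLS-N-VEGF cells, and in N-VEGF cells to 254 to 398 and 275 to 557. Cspg4 and Acta2, the only genes of that list to pass the filter, averaged 220 and 113 CPM. The other genes of the list averaged at most 0.384 CPM (Des), so the sum stands for these 2 genes. The part of the marker genes in the Nrp1 value was not tested.

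Nrp2, the coreceptor that also binds Vegfc and Sema3f, was the most abundant member on the CPM scale and the least variable between libraries. NLS-N-VEGF cells had 138, 134 and 141 CPM without dox and 161, 161 and 144 with dox, and N-VEGF cells had 146, 144 and 153 without dox and 154, 155 and 162 with dox. In both populations all libraries with dox lay above those without. The differences were small, 0.175 on the log2 scale in NLS-N-VEGF cells (SE 0.073, interval 0.02 to 0.34) and 0.09 in N-VEGF cells (SE 0.073, interval -0.07 to 0.25). Neither passed the test, and the mean over both populations was 0.13 (0.02 to 0.24, edgeR unadjusted p = 0.0267, adjusted p = 1).

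None of the 6 tested members was called for dox in NLS-N-VEGF cells, where 0.022% of all genes were, nor for dox in N-VEGF cells, where 0.0367% were. None was called, of 0% of all genes each, for the difference of the dox effects, for NLS-N-VEGF against N-VEGF with dox, or for that contrast without dox. At an unadjusted p under 0.05 the edgeR test had 2 members and 318 genes for dox in NLS-N-VEGF cells, and 1 member and 201 genes for dox in N-VEGF cells. It had 0 members and 116 genes for the difference, 1 and 160 with dox, and 0 and 82 without. DESeq2 called 0 members in each of these comparisons. Without dox the members' log2 differences between populations ran from -0.13 to 0.09.

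Groups that do not overlap were counted apart from the test. Nrp1 and Nrp2 were higher in every NLS-N-VEGF library with dox than in every one without, a pattern found in 4.78% of the genes tested. In N-VEGF cells Nrp2 was higher throughout with dox (2.13% of genes), and Pgf and Flt1 were lower throughout (1.79% of genes). The gaps there were narrow. For Nrp2 the nearest libraries with and without dox had 153.5 and 152.5 CPM, and for Flt1 2.277 and 2.388. For Pgf they had 21 counts each, or 1.312 and 1.32 CPM. Without dox, Nrp2 was lower in all NLS-N-VEGF libraries than in all N-VEGF libraries (1.49% of genes).

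**Figure D4:**
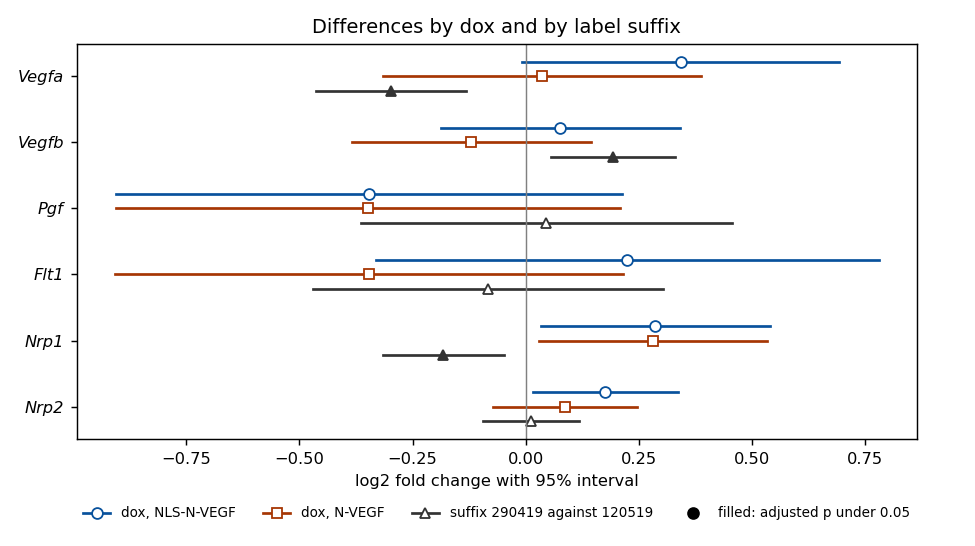
Log2 fold changes of the 6 tested members with 95% intervals from edgeR, for dox in NLS-N-VEGF cells, dox in N-VEGF cells and suffix _290419 against _120519; filled points passed an adjusted p of 0.05. The filled points are Vegfa (-0.30), Vegfb (0.19) and Nrp1 (-0.18), all in the suffix comparison.

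The replicate suffix moved 3 of the 6 tested members, 2 down and 1 up. Over all genes tested, 45.6% were called in this comparison, 23.5% lower and 22.2% higher in suffix _290419. Members were thus called about as often as genes in general. The suffix is balanced over the 4 groups, with 1 library of 3 in each, and the model held the group. All 4 libraries with suffix _290419 carry the same replicate label, 2_290419, so suffix and replicate label cannot be told apart there. The test took libraries as independent, although those sharing a label deviated together. Its p-values, here and for the genes below, thus do not measure the spread between separate replicates of a suffix.

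Vegfa fell in suffix _290419 by 0.30 on the log2 scale (SE 0.078, interval -0.46 to -0.13, edgeR adjusted p = 0.00533). The 4 libraries with that suffix had 73.3 to 84.9 CPM. The 8 with suffix _120519 had 78.9 at the lowest, 90.6 at the median and 130 at the highest. The ranges overlapped, yet within each of the 4 groups the _290419 library lay below both others. How many genes share such an order was not counted, here or for the members below. The value ran from -0.39 to -0.18 over the alternatives, and Vegfa passed in each of them, with an adjusted p of at most 0.0404. The value of -0.18 came without NLS-N-VEGF with dox 2_290419.

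Vegfb rose in suffix _290419 by 0.19 (SE 0.065, interval 0.06 to 0.33, edgeR adjusted p = 0.0231). It had 49.9 to 53.3 CPM in suffix _290419 and 39.6 to 53.2 in suffix _120519, and lay above both _120519 libraries in 3 of 4 groups. The call was lost in 9 of 18 alternatives, among them DESeq2 (adjusted p = 0.0598) and 7 of the 12 fits that leave out 1 library, with an adjusted p of 0.145 without N-VEGF with dox 2_290419. With Vegfa lower and Vegfb higher, the per-kilobase ratio of Vegfa to Vegfb was 0.515 to 0.634 in suffix _290419 and 0.556 to 1.06 in suffix _120519.

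Nrp1 fell in suffix _290419 by 0.18 (SE 0.063, interval -0.32 to -0.05, edgeR adjusted p = 0.0267), with 54.7 to 75.6 CPM in suffix _290419 and 60.1 to 81.9 in suffix _120519. It lay below both _120519 libraries in 3 of 4 groups, and between them in NLS-N-VEGF cells with dox. Without N-VEGF with dox 2_290419 the value was -0.11 (adjusted p = 0.183), and the call was also lost without NLS-N-VEGF without dox 2_290419 (adjusted p = 0.102), without N-VEGF with dox 1_120519 (adjusted p = 0.0509) and with the suffix alone in the model (adjusted p = 0.119). The dox effect on Nrp1 was lower by 0.36 in suffix _290419 in N-VEGF cells (edgeR adjusted p = 0.555) and 0.26 higher in NLS-N-VEGF cells (interval -0.02 to 0.55, adjusted p = 0.931), with 0% of genes called in each. Both values rest on 1 library per group with that suffix.

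Pgf (0.045, interval -0.37 to 0.46), Flt1 (-0.08, -0.47 to 0.30) and Nrp2 (0.01, -0.10 to 0.12) were not called between suffixes. Suffix accounted for 33.1% of the variance of log2 CPM of Vegfa, 44.9% of that of Vegfb and 22% of that of Nrp1. The median over 12058 genes was 36.2%. For Nrp2 the suffix took 0.3% and the group 71.3%. The group took 43% for Vegfa, 15.9% for Vegfb, 53.2% for Pgf, 35.1% for Flt1 and 58.5% for Nrp1. The group has more levels than the suffix, and its share over all genes was not computed. Marker genes moved with the suffix too, in both directions. Of 12 fibroblast genes 9 were called, 6 lower and 3 higher, among them Pdgfra (-1.32), Col3a1 (-1.22) and Thy1 (0.53). The largest change was that of Lum (5.26), a gene with 0 to 26 counts per library. Of the 5 endothelial genes tested Esam was higher and Tie1 and Egfl7 lower, and of the 2 macrophage genes tested Cd68 was higher and Csf1r lower. The mural list, 8 genes of pericytes and smooth muscle led by Cspg4 and Acta2, summed to 233 to 315 CPM in suffix _120519 and 374 to 557 in suffix _290419, with Rgs5 and Kcnj8 below detection and both genes that were tested called higher. The part of these genes in the members' differences was not tested, and in bulk RNA fewer cells of a type and less RNA per cell cannot be told apart.

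Other genes of the pathway were taken from fixed lists and counted in the same fits. No gene of any list passed for dox in either population alone, where 0.022% and 0.0367% of all genes did. Over both populations 1 of 40 tested genes of VEGF receptor signalling rose with dox, against 0.0588% of all genes. This was Src, a tyrosine kinase that acts downstream of VEGF receptors and many others. In NLS-N-VEGF cells its level was 48.1, 45.2 and 47.7 CPM before and 72.3, 67.1 and 68.6 CPM after dox. In N-VEGF cells it was 61.5, 49.97 and 44.4 CPM before and 72.6, 71.7 and 75.6 CPM after dox. All 6 libraries with dox lay above all 6 without, as in 0.257% of the genes tested. Src rose by 0.53 over both populations (SE 0.075, edgeR adjusted p = 0.0224). In each population alone it was 0.56 and 0.50 (adjusted p = 0.525 and 0.894), and with the replicate label as a block both passed (adjusted p = 0.00869 and 0.0241), where 0.125% and 0.11% of all genes did. Over both populations the block also called Plxna2, a plexin of the neuropilin partners and 1 of 10 tested (log2 fold change 0.31, adjusted p = 0.0252), with 0.566% of all genes called.

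Between suffixes, genes known to regulate Vegfa transcription and mRNA moved in both directions. Of 9 listed, 8 were tested and all 8 were called, 5 lower and 3 higher, against 45.6% of all genes, and their median was -0.27 on the log2 scale (0.005 for all genes). Hif1a, the oxygen-regulated subunit of hypoxia-inducible factor 1, fell by 0.495 (SE 0.059, edgeR adjusted p = 8.03e-06). It had 130 to 155 CPM in the 4 libraries with suffix _290419, below all 8 with suffix _120519, as were 14.9% of the genes tested. With dox Hif1a differed by 0.21 in NLS-N-VEGF cells (interval -0.24 to 0.65) and by 0.03 in N-VEGF cells (-0.41 to 0.48). Zfp36l1, which promotes decay of AU-rich mRNAs including that of Vegfa, fell by 0.87, and the transcription factor Sp1 by 0.52. Elavl1, which stabilizes such mRNAs, rose by 0.29, Hnrnpl by 0.24 and Zfp36 by 0.20.

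Neuropilin partners, the class 3 semaphorins and plexins, had 10 of 13 genes tested, with 5 lower and 1 higher in suffix _290419, or 60% called where 45.6% of all genes were. Plexin Plxna4 fell by 1.25, and the neuropilin ligands Sema3c and Sema3a by 0.98 and 0.915, while Plxna3 rose by 0.30. Of the 6 listed genes that process Vegfc, Adamts3 and Pcsk5 were below detection. Of the 4 tested, 3 fell, as did 23.5% of all genes: Ccbe1, which recruits the protease, by 0.95, Adamts14 by 0.44 and the convertase Furin by 0.235. The other tested gene, Pcsk7, was 0.17 higher and not called. In VEGF receptor signalling 11 of 40 fell and 3 rose, and these 35% lie below the 45.6% of all genes called. Listed by size of change, the called genes were led by the sphingosine kinase Sphk1 (-1.01), Casp9 (-0.63) and the phosphoinositide 3-kinase subunit Pik3r2 (-0.37) among the lower and by Nfatc1 (0.47), Hras (0.25) and Mapk14 (0.14) among the higher. The list's median was -0.06.

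Among ligands outside the 9 members, Vegfd, which like Vegfc binds Flt4, was well expressed. It had 300 to 717 counts per library, compared with at most 6 for Vegfc. Its level was 34.8 to 42.5 CPM in suffix _290419 and 22.1 to 32.2 in suffix _120519, without overlap (13.1% of genes tested were higher without overlap), and it rose by 0.48 (SE 0.085, edgeR adjusted p = 0.000288). Vegfd thus moved in the opposite direction to Vegfa, and the per-kilobase ratio of Vegfa to Vegfd was 1.02 to 1.37 in suffix _290419 and 1.41 to 3.23 in suffix _120519. Pdgfc, a related ligand, rose by 0.17, while Pdgfb and Pdgfd were below detection and Pdgfa was not called.

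Across libraries, each tested member was set beside 12057 other genes, those that averaged 1 CPM or more, by Pearson's r of log2 CPM. These r values are descriptions over 12 libraries that share groups and suffixes. Closest to Vegfa were Pvr (r = 0.930), Adora2b (0.926) and Lrrk2 (0.912). The closest gene was Bcl2l1 for Vegfb (0.938), Sat1 for Pgf (0.801), Rpe for Flt1 (0.773), Extl2 for Nrp1 (0.940) and Tbpl1 for Nrp2 (0.905). In the 8 libraries with suffix _120519 only Nrp1 kept its closest gene, Extl2 with r = 0.984. Among the members themselves, Nrp1 ran opposite to Pgf (r = -0.71 over 12 libraries and -0.72 over 8). Vegfa and Nrp1 had r = 0.52 over 12 libraries and 0.46 over 8, and Nrp1 and Nrp2 had 0.36 and 0.70.

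The members lie on 7 chromosomes in GRCm38, and the table's positions equalled those of the annotation for all 9. Vegfa (ENSMUSG00000023951) spans chr17:46016993-46032369, Vegfb chr19:6982473-6987651, Pgf chr12:85166635-85177790 and Vegfc chr8:54077606-54187096. Both Flt1 (chr5:147561604-147726011) and Kdr (chr5:75932827-75978458) lie on chromosome 5, and Flt4 lies at chr11:49609263-49652739. Nrp1 (chr8:128358604-128503363) shares 0.818% of its exon bases with the microRNA gene Mir1903, and Nrp2 spans chr1:62703285-62818695. Vegfa has 13 annotated transcripts, and counts per gene do not separate them.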

How the data were processed

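RNA for the 12 libraries was extracted with Trizol and prepared with TruSeq v2. Per the labels and the study's methods, the authors trimmed reads with Trim Galore and cutadapt 1.10, aligned them to GRCm38 with TopHat2 2.1.0 and Bowtie2 2.2.6, counted reads per gene with HTSeq 0.6.1 and deposited these raw counts. The strand setting of the counting was not stated. Reads that HTSeq cannot assign to 1 gene are not counted, which can lower genes that share sequence.

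Here, genes were kept by edgeR's filterByExpr (13608 of 54447), scaled by TMM and tested with the quasi-likelihood test (edgeR 4.0.16, limma 3.58.1, R 4.3.3; two-sided; Benjamini-Hochberg over all genes; adjusted p of 0.05), with 1 mean per group over all 12 libraries, or group plus suffix. CPM used TMM-scaled library sizes. Alternatives were DESeq2 1.42.0, RLE scaling, 2 other filters, suffix as a covariate, a replicate block, suffix _120519 alone and leaving out each library. The dox effect averaged over populations, its leave-outs with the block and the difference of dox effects between suffixes were added after the data were seen. Likeness used log2(CPM + 2). Libraries sharing a replicate label deviated together (18 pairs, r from 0.40 to 0.83 over 12058 genes, mean 0.59). The 36 pairs with other labels had r from -0.76 to 0.68 (mean -0.25), so the ranges overlapped. That check did not separate the replicate label from the suffix. The block takes the labels as pairing the libraries. Members and lists were chosen with earlier results of these data known. The 9 members are always named, along with the closest gene by correlation (3 for Vegfa) and up to 3 genes per direction and list past the threshold with the largest change. Endothelial, macrophage, lymphatic and some fibroblast markers, the construct feature, Hif1a's dox values and the Vegfc-processing genes not called fall outside that rule. They were named after their values were seen. The fits were tested on simulated data. There libraries were independent, and for dox no gene differed by suffix or replicate label. The dox tests were thus not checked under such differences. Figures used matplotlib 3.10.9. Promoters are from RefSeq, primers from the study's oligonucleotide list, and exon lengths from GENCODE M21. The number of table columns left unmapped was 0.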

Additional observations from a re-analysis of the deposited data

How the results depend on the processing

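The counts of members called for dox in N-VEGF cells, for the difference of the dox effects and for both contrasts between the populations stayed at 0 under every alternative run. For dox in NLS-N-VEGF cells the count was 1 (Vegfa) in suffix _120519 alone and 0 under the others. For dox over both populations, called for 0 members, it was 1 (Nrp1) with the replicate block, 1 with suffix as a covariate and 1 in suffix _120519 alone. With the block kept, leaving out 1 library gave 0 to 1. The replicate block changed no other member's call. In the suffix comparison, where 3 members were called, leaving out 1 library gave 1 to 3, and 1 remained, Vegfa, without NLS-N-VEGF without dox 2_290419, without N-VEGF with dox 1_120519 and without N-VEGF with dox 2_290419. The causes were not tested. Of the members' log2 fold changes under alternatives, 731 kept direction and side of the threshold, 4 newly passed, 13 no longer passed, 44 values that were not called changed sign and no called value did. With a floor of 10 counts, 3 members were below detection (Kdr, Flt4 and Vegfc). Pgf and Flt1 had 14 to 58 counts per library.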
